A study of Mus musculus with 32 samples.

Results

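The surroundings of Mycn were examined in wild-type (WT) mouse embryonic stem cells and in H1-TKO cells. Mycn encodes N-Myc, a transcription factor of the MYC family. The rows were chosen by gene name or position: all transcripts of the authors' deposited table of differential chromatin RNA that carry the name Mycn, or that lie in a window of 800 kb on chromosome 12 (build mm10), from 436.1 kb below the gene to 358.1 kb above it. This gave 8 of the 5723 listed transcripts, and all 8 met both conditions. All were of the class that the table calls intergenic, and none was a transcript of the Mycn gene itself. The 22 R-loop peaks that 4 libraries hold in the same window, of 60798 in those libraries, were described with them.

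The study has 32 samples, all of embryonic stem cells grown with serum and the cytokine LIF, with WT or H1-TKO genotype and no further treatment named. H1-TKO is labelled as a triple knockout of histone H1, the linker protein that binds DNA at the edge of the nucleosome; the labels give neither the clone nor the deleted genes. cheRNA, the RNA that stays with insoluble chromatin when nuclei are extracted with urea and detergent, came from 3 samples per genotype. In an R-loop RNA pairs with 1 strand of the DNA and pushes the other strand aside. MapR finds these structures by cutting with micrococcal nuclease fused to the hybrid-binding protein RNase H (RNH). It had 2 RNH libraries per genotype and, per genotype, 1 control library cut with the nuclease alone. The labels do not call the replicates separate cultures, and a p-value over libraries therefore covers only their own spread, possibly a technical one.

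As background, MYC proteins pair with MAX, bind DNA at the sequence CACGTG and drive genes of growth and ribosome production, and the MXD, MNT and MGA proteins compete for the same partner. Embryonic stem cells use both Myc and Mycn to stay undifferentiated and to proliferate. Mycn lies in a gene-poor stretch with many long non-coding RNA genes, and in neuroblastoma it is often amplified together with its neighbours Ddx1 and Nbas. R-loops often form near promoters, where a G-rich RNA is transcribed.

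Read depth is unknown, because the files hold fold changes and peaks but no reads. The table holds no value per sample, no error and no transcript with an absolute log2 fold change below 1.00. A luciferase RNA was added to the chromatin RNA as a spike-in, and whether the fold changes were scaled by it is not given in the sources used here. Nor is the numerator of the fold change named. The transcripts of Hist1h1d, Hist1h1e and Hist1h1c, known as background to be the deleted genes, have positive deposited values of 5.02, 4.83 and 3.61 in the authors' deposited table. All signs were therefore turned so that a positive value means more RNA in TKO, and every direction below rests on that inference. Whether the RNA of a transcript differed per cell or in the share of cells that carry it cannot be told apart in bulk samples. The labelled cell type could not be checked by RNA levels. Of 12 marker genes of embryonic stem cells, 9 had an RNH peak within 1 kb of their start in at least 1 library, as had 2 of 4 neuroectoderm, 1 of 3 mesoderm, 1 of 3 endoderm and 2 of 3 fibroblast markers, where 51.6% of protein-coding genes had one. Gene transcripts of 0 of the 12 were listed, where 4.14% of protein-coding genes had a higher and 4.8% a lower one. Of 10 transcripts of other classes named for the 12, 9 were higher in TKO in the authors' deposited table. The share that was higher was 60.1% over all listed transcripts and 74% over intergenic ones, and a count of 10 shows nothing particular to these markers. Among the other markers, the neural genes Pax6 (log2 1.52) and Tubb3 (2.77) and the fibroblast marker Vim (2.25) were higher in TKO in the authors' deposited table; their part in the results below was not tested.

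Because the peaks beside Mycn and at or near the first base of 3 listed transcripts are described below, their sequences are shown here, read from RefSeq's GRCm38.p6 genome in the direction of the named transcript. Capitals mark runs of at least 4 G or 4 C, the same run read on either strand. The first is the stretch just before the annotated Mycn start (chr12:12941915-12942086, minus strand), the part of RefSeq's Mycn promoter that precedes the GENCODE start. The second is the overlap of the replicate 2 peaks of WT and TKO upstream of Mycn (chr12:12943386-12943578, minus strand). The next 3 are 150 bases around a peak summit: at the start of the transcript beyond the 3′ end of Mycn (chr12:12927453-12927602, plus strand), before the Gm35208 transcript and the annotated start of that gene (chr12:12987011-12987160, plus strand) and near the start of the longest transcript (chr12:12821306-12821455, minus strand). The last is the middle of the only region that both WT replicates share (chr12:12863064-12863213, plus strand).
Mycn upstream: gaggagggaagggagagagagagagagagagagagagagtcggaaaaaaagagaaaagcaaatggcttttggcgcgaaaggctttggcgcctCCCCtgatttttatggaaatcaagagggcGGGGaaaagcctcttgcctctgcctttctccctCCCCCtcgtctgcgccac
Mycn upstream peak: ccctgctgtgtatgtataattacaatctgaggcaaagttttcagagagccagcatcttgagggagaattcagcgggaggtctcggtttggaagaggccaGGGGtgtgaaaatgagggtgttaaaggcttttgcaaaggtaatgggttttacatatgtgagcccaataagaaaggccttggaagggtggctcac
Beyond the Mycn 3′ end: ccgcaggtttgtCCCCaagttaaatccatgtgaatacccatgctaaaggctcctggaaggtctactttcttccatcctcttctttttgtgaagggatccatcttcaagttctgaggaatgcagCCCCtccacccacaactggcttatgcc
Upstream of Gm35208: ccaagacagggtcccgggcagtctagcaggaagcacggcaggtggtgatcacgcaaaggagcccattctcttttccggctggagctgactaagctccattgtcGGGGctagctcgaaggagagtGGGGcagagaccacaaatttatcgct
Longest transcript: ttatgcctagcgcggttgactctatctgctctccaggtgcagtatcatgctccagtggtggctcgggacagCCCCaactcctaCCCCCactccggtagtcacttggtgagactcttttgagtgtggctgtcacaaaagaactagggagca
WT shared region: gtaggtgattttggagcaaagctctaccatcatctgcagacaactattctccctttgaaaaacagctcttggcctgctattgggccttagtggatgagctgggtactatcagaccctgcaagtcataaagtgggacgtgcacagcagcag

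The stretch before Mycn opens with a long run of alternating g and a and has a GC content of 54.1% and 7 CpG pairs. The upstream peak has 47.2% GC and 2 CpG pairs. The sequence upstream of Gm35208, at 57.3% GC and 7 CpG pairs, had the highest GC content of the 6 sequences, and the WT shared region held 1 CpG pair and no run of G or C. The E-box CACGTG, which reads the same on both strands, occurred in none of the 6 sequences. It was also absent from the whole 300-base promoter of Mycn, whereas 7.24% of 27025 RefSeq promoters of that length hold it. Runs of at least 4 G or C occurred 8 times in that promoter, and 85.9% of the promoters hold at least 1. The Mycn promoter had 56.7% GC and 14 CpG pairs, against medians of 52.7% and 7.

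In TKO cells most of the listed RNA around Mycn was more abundant on chromatin. Of the 8 transcripts in the authors' deposited table, 7 (87.5%) were higher in TKO, with log2 TKO over WT values from 1.10 to 2.91, and 1 was lower at -1.43. Of all listed transcripts 60.1% were higher, and of the intergenic ones 74% were. On chromosome 12 the share of higher intergenic transcripts was 84.8% without the 8 (56 of 66), so that 7 of 8 lies close to the level of that chromosome. Since the rows were chosen from this table, their direction carries no test. The 7 higher transcripts together covered 142.5 kb, or 17.8% of the 800 kb, and the lower one 15.0 kb.

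**Figure D1:**
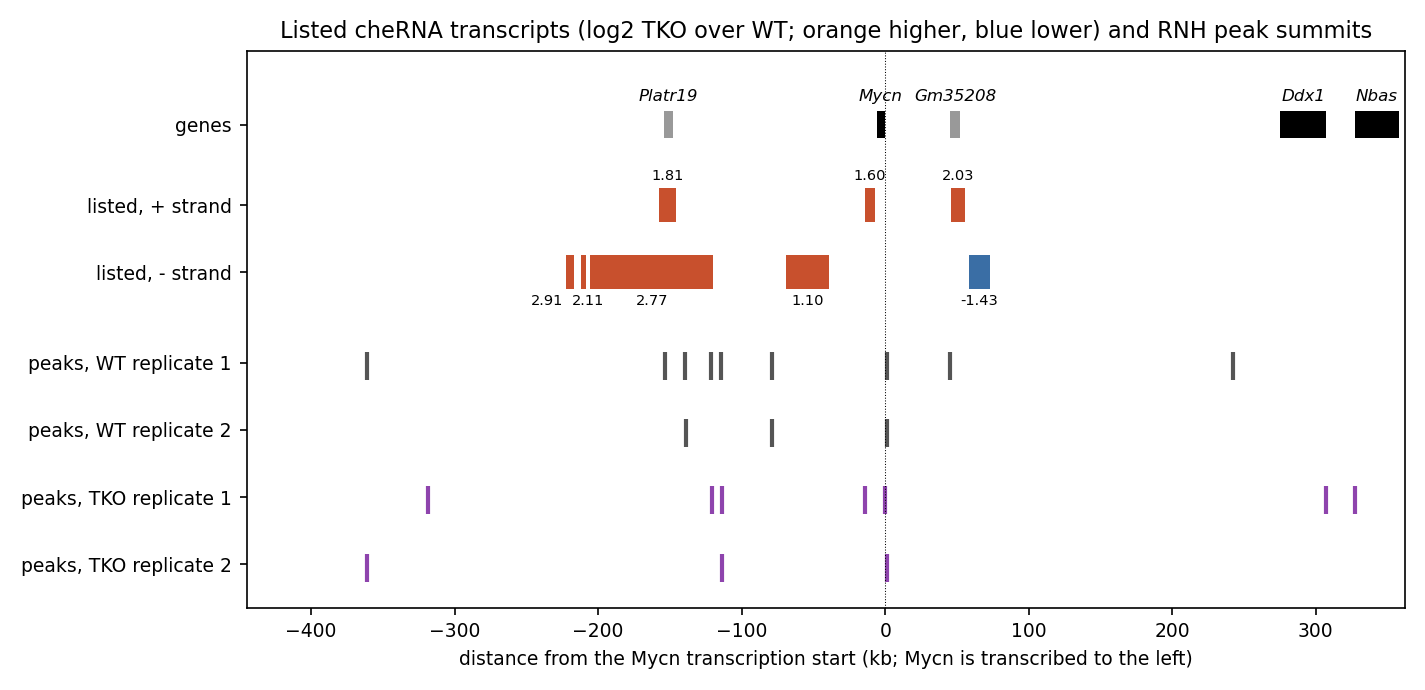
Map of the 800 kb around Mycn: the horizontal axis gives the distance from the Mycn start in kb, bars are genes and listed transcripts on each strand with their log2 TKO over WT (orange higher, blue lower), and ticks are RNH peak summits per library. Higher transcripts lie on both sides of Mycn, the lower one is the farthest on the upstream side, and a tick stands near the Mycn start in all 4 libraries.

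The highest values belonged to transcripts of the minus strand on the downstream side of Mycn, where 3 neighbours begin 119.8 to 216.6 kb from the Mycn start. In the authors' deposited table the transcript at chr12:12719228-12725265 (6.0 kb) had a log2 TKO over WT of 2.91, or 7.53-fold more RNA in TKO. It lies on the strand of Gm40270, a long non-coding RNA gene of RefSeq, and antisense to 3732407C23Rik of GENCODE. The next, at chr12:12730141-12733557 (3.4 kb), overlapped no annotated gene and was 4.30-fold higher in the authors' deposited table (log2 2.11). The longest, at chr12:12736345-12822082, ran 85.7 kb and was 6.81-fold higher in the authors' deposited table (log2 2.77). It is longer than 98.8% of intergenic transcripts, and 22 exceed it. The 3 share strand and direction and follow each other at gaps under 10 kb.

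Within the longest transcript lies Platr19, a non-coding RNA gene on the opposite strand (chr12:12787985-12794285). Platr genes are named for their expression in pluripotent cells. A plus-strand transcript that covers Platr19 from end to end (chr12:12784620-12796326, 11.7 kb) was 3.50-fold higher in TKO in the authors' deposited table (log2 1.81). RNA of both strands was thus listed as higher over Platr19. Among the 8 transcripts, the longest and the Platr19 transcript were the only 2 that overlapped a listed transcript of the other strand. They are each other's partner, so their shared direction is counted from both sides. Of all 1937 intergenic transcripts 302 (15.6%) had such an overlap, 285 of them with all partners going the same way.

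On the downstream side, the 2 transcripts that begin nearest to Mycn had the smallest values. The transcript at chr12:12872888-12902806 (29.9 kb, minus strand) had a log2 of 1.10, or 2.14-fold, in the authors' deposited table. It was the weakest of the 7, and 2.02% of higher intergenic transcripts lay below it. It runs antisense to 2 non-coding RNA genes, Gm48187 and 4930519A11Rik. The transcript closest to Mycn (chr12:12927502-12934821, 7.3 kb, plus strand) ends 1271 bases from the 3′ end of the gene and reads toward it on the opposite strand. It overlapped no annotated gene and was 3.04-fold higher in the authors' deposited table (log2 1.60).

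On the upstream side of Mycn 2 transcripts were listed, with opposite signs. The plus-strand transcript at chr12:12987612-12997675 (10.1 kb) lies along Gm35208, a non-coding RNA gene of the same strand, and was 4.09-fold higher in the authors' deposited table (log2 2.03). The minus-strand transcript at chr12:13000076-13015055 (15.0 kb) begins 73.1 kb from the Mycn start, overlaps no annotated gene and was 2.69-fold lower (log2 -1.43, authors' deposited table). By strand, 3 of 3 plus-strand and 4 of 5 minus-strand transcripts were higher.

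The sizes were modest for their class. The median log2 TKO over WT of the 7 higher transcripts was 2.03 in the authors' deposited table, against 2.63 for all 1434 higher intergenic transcripts and 2.67 for the other 56 on chromosome 12. The strongest of the 7 exceeded 56.9% of higher intergenic transcripts. In width the 7 had a median of 10064 bp against 7208 bp. Their base composition did not stand out, with a median GC content of 45.3% for the 8 against 44.5% for intergenic transcripts. GGACT, a sequence in which m6A methylation is common, occurred 0.884 times per kb (median, sense strand, range 0.293 to 1.17), against 0.873 in all intergenic transcripts. These values describe the sequence and not methylation, which was not analysed here.

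**Figure D2:**
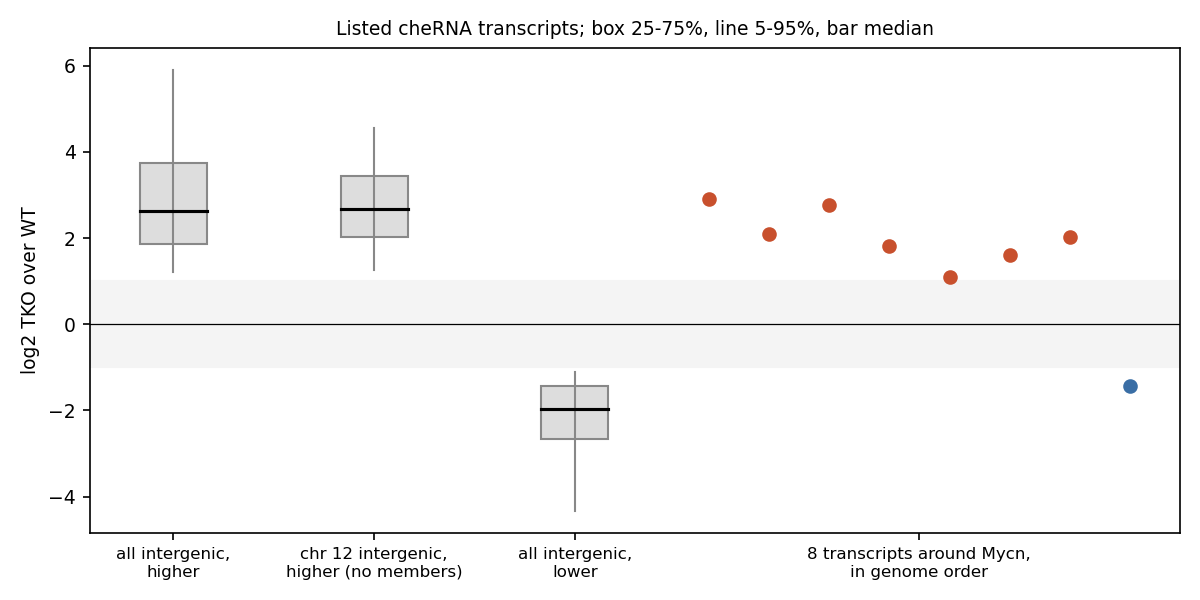
Log2 TKO over WT of the 8 transcripts in genome order (points) beside boxes of all higher intergenic transcripts, the other higher ones of chromosome 12 and all lower ones, with the range not listed by the authors shaded. The 7 higher points sit between 1.10 and 2.91, and 5 of them lie below both medians of higher transcripts.

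None of the 8 transcripts overlaps the body of Mycn (chr12:12936093-12941914, minus strand), and the table lists no gene transcript of Mycn. This says only that Mycn did not meet the authors' listing criteria. The same holds for Ddx1, an RNA helicase gene, and Nbas, a gene of vesicle transport, the other coding genes in the 800 kb. Mycn was the nearest coding gene to each of the 8. Of these, 6 lay in the 555.1 kb between Mycn and Fam49a (Cyria in RefSeq), and 2 in the 275.1 kb between Mycn and Ddx1. Among the 18 GENCODE genes that touch the 800 kb, Platr19 and Gm35208 had a listed transcript on their own strand. The nearest listed transcript outside lay 322.7 kb below, an intergenic one named for Fam49a with a log2 of 1.53 in the authors' deposited table. On the other side it lay 845.0 kb away, the gene transcript of Fam84a (log2 1.82, authors' deposited table). No listed transcript therefore lies near either border.

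Few genes had as many intergenic transcripts named for them. Of 1376 names with such transcripts in the authors' deposited table, 4 carried more than the 8 of Mycn, namely Bcat1, Bcl11a, Slitrk2 and Sox5, and the median name carried 1. These counts were not adjusted for the distance from each gene to its coding neighbours, 555.1 kb and 275.1 kb for Mycn. Mycn was also chosen with earlier results of these data known, so its rank is a description and was not tested. With rows of the same strand and direction within 10 kb merged, the 8 became 6. By the number of transcripts per class, the names most like Mycn were Cox7c, Olfr164, Gm5148, Bcl11a and Mtdh, each 1 transcript away and without a gene transcript. Ties were ordered by how close the median log2 was, and the likeness rests on the single contrast of the table. The median log2 of Cox7c was 2.00 and that of Olfr164 2.52, near the 1.92 of Mycn, whereas Gm5148 stood at 5.76, Bcl11a at 5.81 and Mtdh at -2.72 (authors' deposited table).

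The MYC network was then read from the same table. Of 13 genes, 1 had a gene transcript higher in TKO and 1 lower, where 4.14% of protein-coding genes had a higher and 4.8% a lower one. Mlxipl, which encodes the glucose-responsive factor ChREBP, was 3.54-fold higher in the authors' deposited table (log2 1.82), and Myc was 3.86-fold lower (log2 -1.95). The transcripts of other classes named for Myc and for Mycn went different ways, a difference that was not tested. Both of those named for Myc were lower, with log2 values of -1.64 and -1.42 in the authors' deposited table, whereas 7 of 8 named for Mycn were higher. Over all listed intergenic transcripts 74% were higher. Myc is represented by its named transcripts alone, and no window around it was read. The other 10 genes, among them Mycl, Max, Mnt and Mga, had no listed transcript. Among 22 growth genes known as MYC targets, 1 was higher, the cyclin gene Ccnd2 (5.86-fold, authors' deposited table), and 0 were lower. Of 11 genes for partners and regulators of N-Myc stability, such as Aurka and Fbxw7, 0 were listed. A chosen list of 8 genes from the wider region, which does not hold Fam84a, had 1 higher gene, the pseudokinase gene Trib2 (3.46-fold, authors' deposited table), and 0 lower. Counts this small show nothing particular to these lists.

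Of 19 separate R-loop regions in the 800 kb, 16 were found in 1 library. The same share over the genome was not counted, so 16 of 19 is not shown to be particular to this window. The lists also differ in length, with 22336 and 6612 peaks in WT replicates 1 and 2 and 25392 and 6458 in TKO. WT replicates 1 and 2 held 9 and 3 peaks there, TKO replicates 1 and 2 held 7 and 3, and the WT and TKO controls held 0 each. As a share this was 0.410 and 0.487 per 1000 peaks of the library in WT and 0.281 and 0.499 in TKO, after removal of peaks that overlap a control peak. TKO replicate 1 had the lowest and TKO replicate 2 the highest share, so that the TKO values enclose both WT values. The log2 TKO over WT of the share was -0.26 (two-sided exact permutation test of 2 against 2 libraries, p = 1, with 0.33 the smallest p possible). Without TKO replicate 1 it turned to 0.16. The 4 libraries together held 22 peaks, more than 69.6% of 3413 tiles of 800 kb over the genome, whose median was 14.

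The peaks were not high for their libraries. By the authors' fold enrichment over the local background, their medians were 3.59 and 3.37 in WT replicates 1 and 2 and 3.42 and 4.54 in TKO. Each was below the median of its library, 3.74, 4.34, 3.80 and 4.67 in the same order. The span medians exceeded 41.9%, 7.8%, 30.9% and 43.0% of the peaks of these libraries, so that those of WT replicate 2 were the lowest for their library. The highest was a WT replicate 1 peak at chr12:12862858-12863299 (4.79-fold). The peaks were also poorer in GC, with a median of 51.5% against 60.0% over all 60798 RNH peaks, and held 18.6 CpG pairs per kb against 50.1.

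**Figure D3:**
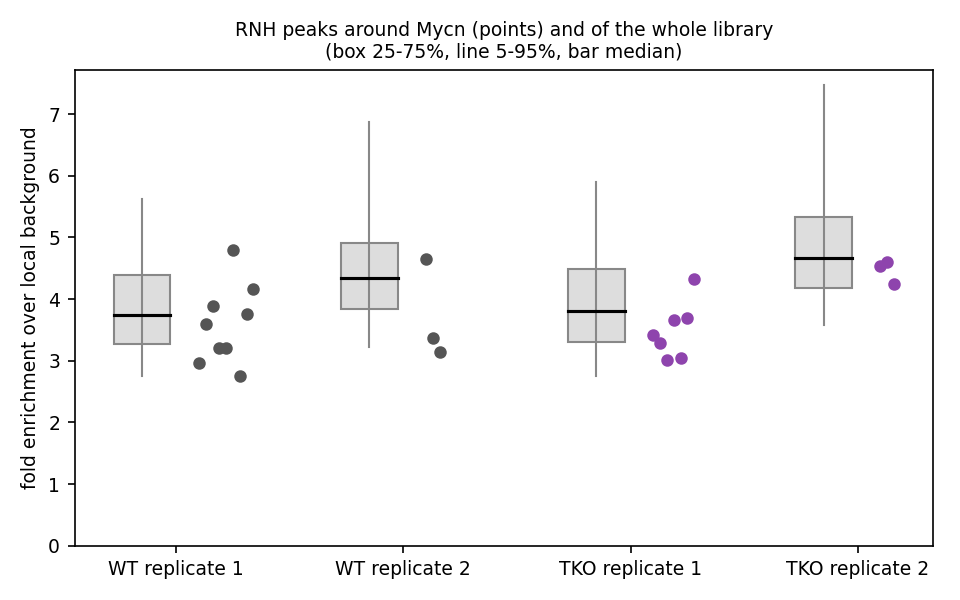
Fold enrichment of the RNH peaks in the 800 kb around Mycn (points) beside the peaks of the whole library (box, line and median bar), for the 4 RNH libraries. Points reach from 2.75 to 4.79, and the median of the points is below the bar in each library.

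Near the Mycn start all 4 libraries had a peak, but only those of the replicate 2 libraries overlapped. The summit lay 1.07 kb upstream in WT replicate 1 (2.75-fold) and 1.59 kb upstream in WT replicate 2 (3.14-fold). In TKO replicate 2 it lay 1.59 kb upstream (4.24-fold), 1 base from that of WT replicate 2. In TKO replicate 1 it lay 0.24 kb inside the gene (3.05-fold). Fold enrichment was 2.94 ± 0.28 (SD, n = 2) in WT and 3.64 ± 0.84 (SD, n = 2) in TKO. The difference of 0.70 was larger than the SD of WT and smaller than that of TKO. A two-sided exact permutation test of the difference gave p = 0.67, with 0.33 the smallest p possible. These means pool peaks at different bases, and the values were not scaled between libraries. Each of the 4 peaks lay below the median of its library, 3.74 and 4.34 in WT replicates 1 and 2 and 3.80 and 4.67 in TKO. The lower TKO value, 3.05, lies between both WT values. The difference shrank to 0.10 without TKO replicate 2, grew to 1.30 without TKO replicate 1, and lay between these values without either WT replicate. The window of 2 kb was chosen after the peaks were seen; within 1 kb of the start or in the gene, WT replicate 1 and TKO replicate 1 had a peak.

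**Figure D4:**
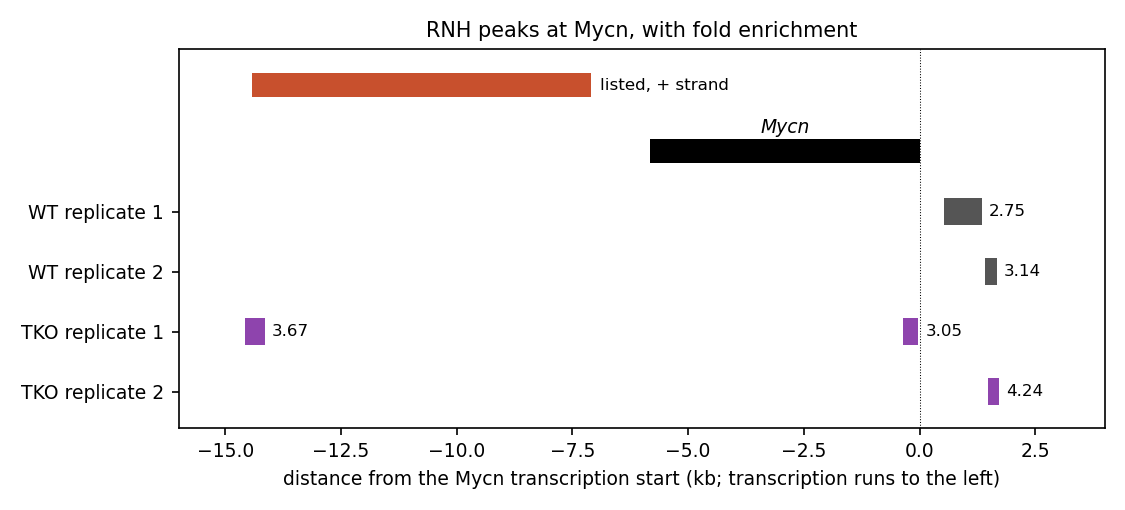
RNH peaks from 16 kb downstream to 4 kb upstream of the Mycn start, one row per library, with the fold enrichment beside each peak, the Mycn gene in black and the nearest listed transcript in orange. The replicate 2 peaks of WT (3.14) and TKO (4.24) sit over each other, and each replicate 1 library has a peak closer to the start. TKO replicate 1 also has a peak 14.39 kb downstream (3.67), at the start of the nearest listed transcript.

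Elsewhere in the span 1 region was shared by both WT replicates, at chr12:12862858-12863327, and 0 by both TKO replicates. Its summits lay 2516 and 2453 bases before the start of Gm48187, and no listed transcript covers it. Peaks of both genotypes overlapped in 2 places, the Mycn upstream peak and chr12:12580671-12581091 (WT replicate 1 and TKO replicate 2). How common shared regions are over the genome was likewise not counted. When peaks of any library up to 1 kb apart were joined, 13 regions remained, 1 of them in 4 libraries, at Mycn, and 1 in 3 libraries. The latter, at chr12:12827078-12828550, held peaks of WT replicate 1 and both TKO replicates and overlaps the start of Gm35155, a RefSeq non-coding RNA gene (chr12:12828050-12829248). The start of Ddx1 had a peak in TKO replicate 1 (3.69-fold), as did that of Nbas (4.32-fold), and the other libraries had none at either.

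Peaks met 3 of the 8 transcripts (37.5%), against 33.4% of all intergenic transcripts. Per Mb of transcript length the order was the other way, with 17.7 transcripts that met a peak among the 8 and 24.3 among all intergenic ones. The longest transcript held 5 peaks, 4 of them of WT libraries. The Platr19 transcript held 1 of these same 5, of WT replicate 1, whose summit lay 343 bases from the Platr19 start. That peak thus counts for both transcripts. The transcript beyond the 3′ end of Mycn held 1, of TKO replicate 1, and that peak spans its first base. A peak of WT replicate 1 ended 232 bases before the first base of the Gm35208 transcript, and one of TKO replicate 1 lay 529 bases inside the longest transcript, counted from its first base. In all, 3 of 8 transcripts had a peak within 1 kb of their first base, against 23.5% of intergenic transcripts, and in each case the peak came from 1 library. The transcripts with the highest and the lowest log2 values were far from any peak, with 62734 and 27675 bases between their first base and the nearest one.

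For the MYC network, 11 of 13 genes had an RNH peak within 1 kb of their start in at least 1 library, where 51.6% of protein-coding genes did. Mxd4 and Mnt, which encode repressors that compete with MYC proteins for MAX, had one in all 4 libraries. Mycl had one in 3 and Myc in 2. Replicate 1 libraries, whose lists are longer, gave 10 of 13 in WT and 11 of 13 in TKO, and replicate 2 libraries 6 and 3. The replicates of a genotype thus differed more than the genotypes did. Of the partners of N-Myc 8 of 11 had such a peak, and of the growth targets 18 of 22. Other lists had similar or lower shares, with 9 of 12 embryonic stem cell markers and 6 of 8 genes of the wider region. It was 2 of 4 for neuroectoderm, 1 of 3 for mesoderm, 1 of 3 for endoderm and 2 of 3 for fibroblast markers. These shares were not tested and show nothing particular to the MYC lists.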

How the data were processed

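The values come from 1 table on 6 cheRNA samples and from the peak lists of 6 MapR libraries; the samples of the other assays were not analysed here. For cheRNA the submitters' processing notes name TopHat2, BWA, SAMtools, bedtools and DESeq2, for MapR BWA and MACS2, with build mm10. Versions, control libraries, scaling and options were not given in the sources used here. Log2 fold changes, whose sign was turned, are what the authors' deposited table holds. The authors' lists hold, per peak and library, a fold enrichment (a ratio), −log10 p and q values, and a score that was not used; the depth behind them is unknown.

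Transcripts were set against GENCODE M21 and RefSeq GRCm38.p6 genes, both on the build of the files, and no peak or transcript ran past the end of its chromosome. Overlaps needed 1 bp. Peaks that meet a control peak were removed from shares and shared regions. Comparisons between libraries used exact permutation tests (two-sided), in Python 3.11.15 with numpy 2.4.6 and pandas 2.3.3. The counting of overlaps was checked on simulated intervals, and the permutation test over libraries on small sets with a known answer. No transcript or gene test was run. Alternatives were a stricter peak threshold, equal list lengths, other spans, overlaps and promoter windows, a block by replicate number, and leaving out each library. Named were all 8 transcripts, the genes of the span, listed members of the gene lists and the 5 most similar names. The rows and lists were chosen with earlier results of these data known. Joining peaks up to 1 kb apart, the 2 kb window at Mycn and the Platr genes were added after the data had been seen.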

Additional observations from a re-analysis of the deposited data

How the results depend on the processing

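Taken in the span alone or wholly within it, the share of higher transcripts rested on the same 8 rows, so it could not move from 87.5%. It lay between 83.3% and 90.5% with rows within 10 kb merged (5 of 6), with the span widened by 0.5 Mb (8 of 9, 1 row added) or by bases covered. Among the 4 with an absolute log2 of at least 2 it was 100%, where the lower transcript drops out. The log2 TKO over WT of the peak share ranged from -0.67 to 0.16 with 1 library left out, turning positive without TKO replicate 1 (0.16); from -0.30 to -0.24 in the other alternatives; it could not be computed with the stricter threshold or equal list lengths, as WT replicate 2 or TKO replicate 1 then held 0 peaks there. The region shared in WT was lost with -log10 q of at least 5 (0) and became 3 when peaks of the same genotype up to 1 kb apart were joined, and the count in TKO became 1. With shared regions in place of single peaks, 0 of the 8 transcripts met one. Libraries with a peak on Mycn or 1 kb before it numbered 1 to 2 with 1 library left out, 1 with 250 bases and 4 with 2 kb. The fold enrichment difference at Mycn ranged from 0.10 to 1.30 with 1 library left out. A replicate block, where numbers are shared but no label says that they pair the libraries, left the peak share at -0.26 (exact permutation p = 1) and the Mycn difference at 0.70 (exact permutation p = 0.5, the smallest that 2 blocks allow). Without the block the smallest possible p is 0.33, and without reads the height of unlisted signal is unknown.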

Other observations

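Platr19 was not the only gene of its kind in the authors' deposited table. Of 30 Platr genes in GENCODE, 6 overlapped a listed transcript on their own strand, and all 6 were higher in TKO, where 74% of intergenic transcripts are. They were Platr14 (3.96-fold), Platr26 (3.76-fold), Platr6 (3.69-fold), Platr19 (3.50-fold), Platr9 (3.18-fold) and Platr11 (2.85-fold, authors' deposited table). In the table these transcripts are of the intergenic class and carry the names of neighbours, namely Cstf3, Itga6, Sgk1, Mycn, Cga and Eomes. The list was chosen after Platr19 had been seen, and no test was made. How many other non-coding genes overlap a listed transcript on their own strand was not counted, so 6 of 30 cannot be called many or few.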
